A study of Mus musculus with 18 samples.

Results

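Cytosolic ribosomal proteins (RPs) were described in bone marrow derived macrophages (BMDMs) of 2 mouse strains. The genes were taken by name: a row of the gene table belonged to the set when it was listed as protein coding and its symbol began with Rpl or Rps and a digit, or was Rplp0, Rplp1, Rplp2 or Rpsa, with the ribosomal S6 kinases (Rps6k) left out. This gave 98 of 20615 rows, 62 of the large subunit and 36 of the small subunit. They comprised 77 canonical RP genes, 6 paralogs (Rpl3l, Rpl7l1, Rpl22l1, Rpl36al, Rpl39l and Rps27l), 14 single-exon copies such as Rps27rt and Rpl36-ps3, and Rps19bp1, which binds Rps19 but is not an RP. The canonical RPs Fau and Rack1 fell outside the name rule and are given beside the set where they bear on it.

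There were 18 RNA-seq libraries in 6 groups of 3. BMDMs came from C57BL/6 (B6) mice or from C57BL/6.NOD-Aec1Aec2 (SjSS) mice, a Sjögren's syndrome model in which NOD intervals on chromosomes 1 and 3 lie on the B6 background. The mice were female and 7 to 12 weeks old, and marrow of both strains was grown to day 7 in medium with L929 supernatant as the source of M-CSF. Cells were left untreated (Con), given 1 µM CpG for 6 h, or given dexamethasone-killed thymocytes (apoptotic cells, AC) at 5 per BMDM for 2 h, washed and kept for 3 h more. All treatments were carried out in L929-conditioned medium, and the dying thymocytes are themselves a possible source of RNA in the AC groups. Thymi were collected from mice of both strains, and the paper does not say which strain's thymocytes each BMDM culture received for RNA-seq. In comparisons of strains with ACs, the strain of the BMDMs and that of the thymocytes may therefore not be told apart. The study names 3 mice per strain. Whether a mouse gave a library to each treatment is not given in the sources used here, and p-values measure the spread between these samples.

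Each ribosome holds about as many molecules of one RP as of the next, and the mRNAs of these proteins are among the most abundant in growing cells. RP mRNAs share a 5′ terminal oligopyrimidine (TOP) tract, a cytidine at the cap followed by a run of pyrimidines, through which mTOR signalling and Larp1 control their translation and stability. Free RPs also act outside the ribosome. Rpl5 and Rpl11 bind Mdm2 when assembly is disturbed, Rps6 is the target of the S6 kinases, and Rpl13a is known in macrophages for silencing inflammatory mRNAs.

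RP genes have many near-identical retrocopies, and the reads of a protein were often assigned to a copy in place of the gene. Rps27 shows the most direct case, and 3 coding sequences are printed to show how alike the rows are that compete for its reads. The sequences are mm10 transcripts of GENCODE M21. Rps27 (chromosome 3, 90212671 to 90213651, minus strand, 4 exons) and its retrocopy Rps27rt (chromosome 9, 114982366 to 114982739, minus strand, 1 exon) were identical over all 255 coding bases, so no read within them can tell the genes apart. The paralog Rps27l (chromosome 9, 66946086 to 66949512, plus strand, 4 exons) differed from them at 61 bases, an identity of 76.1%, and its differing bases are in capitals.
Rps27 and Rps27rt: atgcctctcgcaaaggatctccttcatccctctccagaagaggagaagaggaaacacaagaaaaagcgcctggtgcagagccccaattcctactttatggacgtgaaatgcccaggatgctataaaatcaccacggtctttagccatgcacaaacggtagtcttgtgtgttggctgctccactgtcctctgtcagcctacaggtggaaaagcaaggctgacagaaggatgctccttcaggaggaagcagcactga
Rps27l: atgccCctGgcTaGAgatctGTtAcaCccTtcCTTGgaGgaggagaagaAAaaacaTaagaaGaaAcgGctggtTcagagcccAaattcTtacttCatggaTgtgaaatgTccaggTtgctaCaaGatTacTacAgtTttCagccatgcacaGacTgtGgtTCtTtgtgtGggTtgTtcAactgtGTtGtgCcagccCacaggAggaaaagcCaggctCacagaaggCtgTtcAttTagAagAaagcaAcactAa

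The Rps27 row held a mean of 64.0 estimated counts over the 18 libraries and the Rps27rt row 12628.6, so 0.5% of the reads of this protein stood under the gene's own name. Of all values of the RP rows, 92.1% were not whole numbers, against 41.1% of the whole table, which shows how often reads were divided among rows. Rows were therefore also summed into 83 families, each an RP gene with every row whose transcript matched it over most of its length. The families took in 657 rows, 560 of them outside the name rule, and 77 families had more than 1 row, with up to 36. The 83 are named by the 77 canonical RP genes and the 6 paralogs, and Fau and Rack1 were summed in the same way beside them.

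The named gene held the largest row in 39 families and a copy did in 44. Its median share of the family was 39.41%. It was under 10% in 15 families, among them Rps12 (0.01%, with 99.82% on Rps12-ps3), Rpl23a (0.64%), Rpl5 (1.45%, with 98.39% on Gm15500), Rpl12 (2.88%) and Rpl10 (3.77%). It was over 90% in 16, among them Rplp2 (99.98%), Rps3, Rps9 and Rpl8 (each 100%) and all the paralogs but Rpl22l1. Values of a row whose share is small follow how reads were divided as well as the gene's mRNA, and in the comparisons that follow each count is given for rows and for families.

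**Figure D1:**
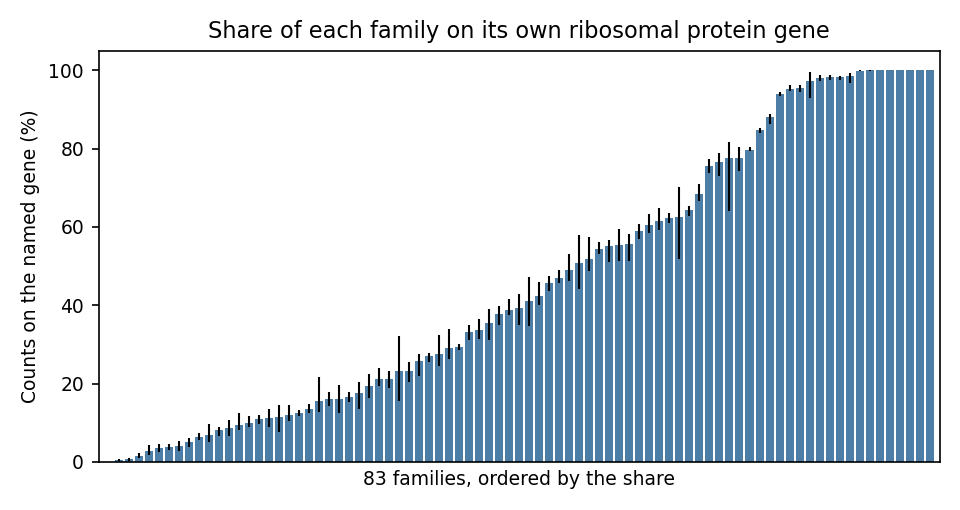
Share (%) of each family's estimated counts on the RP gene that names it, in order of the share; bars are means of the 18 libraries and lines run from the lowest to the highest library. The bars rise without a break from 0.01% for Rps12 to 100%.

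The 98 rows took between 1.257% and 1.686% of all counts in the 18 libraries, and the families between 2.458% and 3.269%. Untreated B6 BMDMs had 1.528 ± 0.033% on the 98 rows (SD, n = 3), and untreated SjSS BMDMs had 1.604 ± 0.071%. The share was lower with ACs in both strains, at 1.378 ± 0.052% in B6 and 1.371 ± 0.059% in SjSS. With CpG it was 1.276 ± 0.031% in B6 and 1.426 ± 0.021% in SjSS. In each strain the 3 treated libraries of either treatment lay below the 3 untreated ones. Library totals ran from 30688336 to 57139662 estimated counts.

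**Figure D2:**
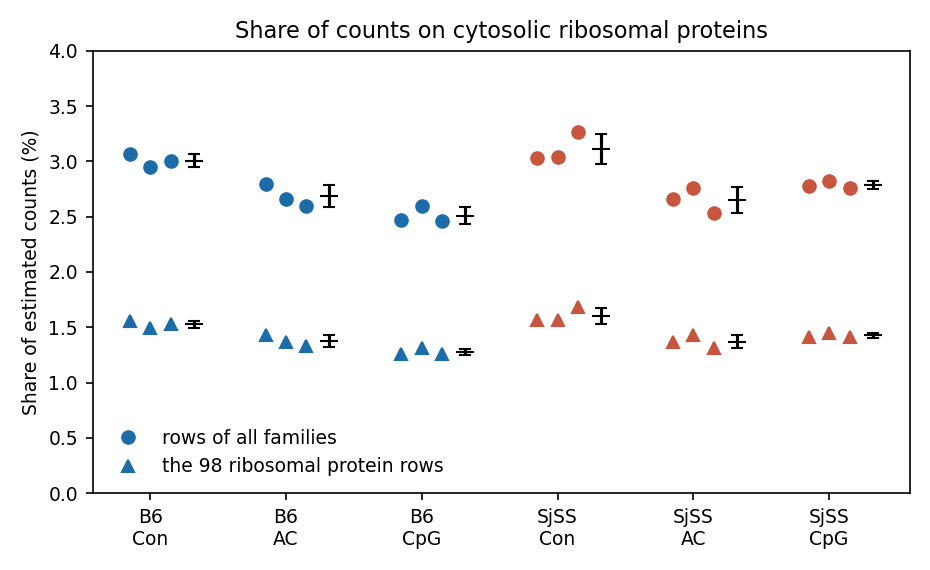
Share (%) of each library's estimated counts on the 98 RP rows (triangles) and on all rows of the RP families (circles), by group; each point is a library and the bars beside them are the mean ± SD of 3. Every treated library lies below the untreated libraries of its strain, by share of the library total.

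A share of the library depends on the counts of the other genes as well. With ACs in SjSS BMDMs the 100 most abundant genes took 28.98 to 29.51% of the counts. They took 26.21 to 26.91% in untreated SjSS BMDMs and 27.13 to 27.63% in B6 BMDMs with ACs. The 10 most abundant genes went the other way in SjSS, with 10.97 to 11.23% with ACs and 12.04 to 12.76% untreated. The part of abundant genes in the RP share was not tested. With library totals as the scale, the median gene was 0.43 lower on the log2 scale with ACs in SjSS, and with TMM scaling, which centres the bulk of genes, it was at -0.02. All fold changes that follow are log2, on the TMM scale and with a standard error (SE), and the direction of the RPs in SjSS with ACs turned around with library totals. Shares of all rows or features called are from the TMM scale. For library totals that share is not given, so counts of RPs called on that scale are no result about the RPs by themselves. A change of scale moves all rows of a comparison by about the same amount, so it cannot change their distance from the median gene. The median RP row stood 0.21 above the median of all rows, and this distance is no test of the scale.

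Among canonical RP families, levels spread widely. Summed over each family and divided by coding length, the level ran from 173 to 6024 CPM (counts scaled to a common library size) per coding kilobase, with a median of 635.9 over 77 families. Rpl41, whose product is the smallest RP, was highest by this measure. Counts came from whole transcripts, so dividing by coding length alone raises genes whose coding part is small. In Rpl41 it is 78 of 582 transcript bases. Undivided, the Rpl41 family had a mean of 469.9 CPM over the 18 libraries and the Rplp1 family 780.5 CPM. Rplp1, a stalk protein present in several copies on each ribosome, followed at 2262, and Rpl23 had 1435, Rps14 1402 and Rps12 1356. The order of Rpl23 and Rps14 was not stable, since Rps14 was the higher of the pair in SjSS BMDMs without treatment (1580 ± 83.0 against 1426 ± 31.49) and the lower in B6 (1309 ± 39.05 against 1485 ± 28.82, SD, n = 3). No test was run on these levels.

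Of the 98 rows, 94 passed the filter on low counts. Rpl13-ps3, Rpl3l, which is known from muscle, Rpl9-ps1 and Rps12 had at most 11 counts in any library and were not tested. A row was called at a Benjamini-Hochberg adjusted p under 0.05 in edgeR's quasi-likelihood test over 15789 rows. No RP row was both called and past 1.3 in log2 size, the threshold of the study's methods, in any of the 9 comparisons. Rpl7a-ps3 reached 1.34 ± 1.14 in the interaction of strain with CpG and was not called, and it is named after its value was seen. Read as a plain fold change, 1.3 is a smaller size that rows such as Rpl27 and Rpl7l1 passed. When 1 library was left out, 1 row did so for CpG in B6 and between strains with CpG (without B6_CpG 3), and between strains with ACs (without SjSS_AC 1). The share of all rows past that threshold was 4.46% for ACs in B6, 12.9% for ACs in SjSS, 12.7% for CpG in B6 and 9.26% for CpG in SjSS. Between strains 2.01% passed in untreated BMDMs, 8.93% after ACs and 2.61% after CpG. For the interactions 7.53% passed with AC and 0.614% with CpG.

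In B6 BMDMs, ACs were followed by slightly lower RP mRNA. Of 94 rows, 24 fell and 8 rose, where 18.3% of all rows tested fell and 20.0% rose. The median RP row was at -0.09 and the median of all rows at 0.00. By family, 33 of 82 fell and 3 rose (18.7% and 20.2% of all features), with a median of -0.13. With library totals 44 rows fell and 3 rose, and 53 families fell and 2 rose, alongside a median gene at -0.07. Both subunits took part, with 21 of 50 large subunit families and 12 of 32 small subunit families lower. The count of falling rows was 15, 14 and 10 when B6_Con 1, B6_AC 2 or B6_AC 3 was left out, and that of rising rows 4 without B6_Con 2.

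Rps4x, an X-linked small subunit protein with 1 of the 3 largest falls, had family levels of 502.1, 489.9 and 479.7 CPM untreated and 412.4, 387.9 and 385.3 CPM with ACs. All AC libraries lay below all untreated ones, a change of -0.31 ± 0.05 (adjusted p = 2.87e-05). Rpl37a, a zinc-finger protein of the large subunit encoded on chromosome 1, went from 295.2, 287.7 and 295.2 CPM to 239.4, 228.8 and 216.6 CPM, a change of -0.36 ± 0.08 (adjusted p = 0.00133). The Rps29 family fell by 0.30 ± 0.10 (adjusted p = 0.0282), and Rpl10a, Rpl26 and Rps19 also fell.

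The 3 families that rose with ACs in B6 were Rpl7l1, Rps27l and Rps2. Rps2, a small subunit protein near the mRNA entry site, had 745.4, 705.4 and 742.4 CPM untreated and 898.0, 843.7 and 820.5 CPM with ACs, a rise of 0.22 ± 0.06 (adjusted p = 0.00386) with no overlap, and of 0.16 with library totals, where it was not called (adjusted p = 0.0502). Rpl27 (0.33 ± 0.10) and Rps2-ps6 (0.32 ± 0.09) rose as rows. The Rpl27 row held 3.56% of its family, which had means of 245.5 CPM untreated and 240.3 CPM with ACs. Rplp0, Rpl5, Rpl11, Rps6, Rpl13a and Rps3 were not called, as rows or as families.

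In SjSS BMDMs with ACs the RPs were higher on the TMM scale and lower by library totals, and above the median gene by both. Of 94 rows, 55 rose and 2 fell (28.6% and 29.4% of all rows), with a median of 0.19 against -0.02 for all rows, and with library totals 1 rose and 67 fell. Without any 1 library 40 to 61 rows rose. By family, 58 of 82 rose and none fell (28.9% and 29.8% of all features), with a median of 0.18, and with library totals none rose and 72 fell. Of the large subunit 34 of 50 families rose, and of the small subunit 24 of 32. With library totals the RP rows had a median of -0.22 and all rows one of -0.43, a distance that a change of scale cannot alter.

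Rpl24, a large subunit protein at the bridge between subunits, had the largest rise among the families called on the TMM scale. It had 206.7, 187.8 and 177.9 CPM in untreated SjSS BMDMs and 278.2, 286.5 and 258.1 CPM with ACs (0.52 ± 0.07, adjusted p = 1.21e-06). In B6 it had 228.1, 230.9 and 198.5 CPM untreated and 216.9, 215.5 and 226.0 CPM with ACs, and the groups overlapped. With library totals the SjSS change of Rpl24 was 0.11 (adjusted p = 0.122). Rpl15, a core protein of the large subunit, had 319.4, 312.9 and 322.0 CPM untreated and 419.5, 430.4 and 412.2 CPM with ACs (0.40 ± 0.04, adjusted p = 1.04e-07). Its AC libraries were above every other library on this scale, and with library totals the change was -0.01.

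The small subunit protein Rps24, which is mutated in some Diamond-Blackfan anaemias, rose from 378.6, 362.8 and 361.1 CPM to 463.9, 495.6 and 433.4 CPM on the TMM scale (0.34 ± 0.07, adjusted p = 0.000339), and changed by -0.08 with library totals. Rps4x, which fell in B6, had 494.4, 489.0 and 492.7 CPM untreated and 536.2, 554.2 and 525.9 CPM with ACs (0.13 ± 0.05, adjusted p = 0.0218), and with library totals a change of -0.29 (adjusted p = 2.21e-05). Rps6, the target of the S6 kinases, had 446.3, 436.0 and 443.6 CPM untreated and 519.5, 539.9 and 516.5 CPM with ACs, a change of 0.25 ± 0.04 on the TMM scale and of -0.17 with library totals.

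Several RPs with known roles outside the ribosome were among those called. Rpl5 (0.20 ± 0.05) and Rpl11 (0.20 ± 0.05) rose as families with ACs in SjSS on the TMM scale, as did Rpl26 (0.18 ± 0.06), Rps3 (0.19 ± 0.06), Rps19 (0.18 ± 0.06) and Rps25 (0.23 ± 0.06). With library totals Rpl5 and Rpl11 were at -0.22 each, Rps3 at -0.23, Rpl26 and Rps19 at -0.24 each and Rps25 at -0.19. Of the stalk proteins, Rplp0 rose by 0.22 ± 0.06 (-0.20 with library totals), whereas Rplp2 stood at -0.03 ± 0.09 (adjusted p = 0.767). Rpl13a (0.13 ± 0.06) and Rpl38 (0.09 ± 0.10) were not called. Outside the name rule, Rack1, a scaffold on the small subunit, rose by 0.17 ± 0.06 as a family on the TMM scale (-0.24 with library totals), and the Fau family did not pass the test.

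Some rows that hold few of their family's reads went another way. The Rpl10a row fell by 0.46 ± 0.07 with ACs in SjSS while its family stood at -0.01 ± 0.06. The Rpl12 row fell by 0.21 ± 0.08 while its family rose by 0.16 ± 0.05 on the TMM scale and stood at -0.26 with library totals. The Rpl23a row, at 0.64% of its family, gave the largest row change (0.82 ± 0.25) at 1.922 to 4.218 CPM in SjSS BMDMs without or with ACs.

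With ACs, SjSS BMDMs held more RP mRNA than B6 BMDMs relative to the median gene. Of 94 rows, 66 were higher in SjSS and 4 lower (24.0% and 25.5% of all rows), with a median of 0.30 against -0.05, and with library totals 14 were higher and 24 lower. By family, 64 of 82 were higher and 1 was lower (24.3% and 25.5% of all features), and the exception was Rpl7l1, while with library totals 10 families were higher and 19 lower. With library totals the median of all rows was -0.35. The median of the RP rows relative to all rows was 0.34, which a change of scale cannot alter.

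Among single rows, Rpl36-ps3 (1.22 ± 0.12) and Rps7 (0.66 ± 0.07) were among those furthest above B6 with ACs, and Rpl7l1 (-0.83 ± 0.05), Rpl12 (-0.68 ± 0.08) and Rpl5 (-0.37 ± 0.12) were furthest below, the Rpl12 and Rpl5 families being higher in SjSS (0.37 ± 0.05 and 0.29 ± 0.05 on the TMM scale, 0.07 and -0.02 with library totals and then not called).

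The difference between the strains' AC responses was tested directly as an interaction. It was called above 0 in 56 of 94 rows and below 0 in 1 (19.6% and 18.3% of all rows), with a median of 0.30 against -0.01, and with library totals in 0 and 10 rows. By family it was called above 0 in 63 of 82 and below 0 in none (19.9% and 18.4% of all features). With library totals it was called above 0 in 0 families and below 0 in 6, with a median of -0.05 against -0.35 for all features. On the TMM scale the largest were Rpl22l1 (0.56 ± 0.21), Rpl24 (0.52 ± 0.09) and Rps24 (0.48 ± 0.10), and Rps4x had 0.44 ± 0.07 (adjusted p = 2.91e-05). With library totals these 4 were at 0.21, 0.17, 0.14 and 0.10 and none was called. Rps2 had -0.02 ± 0.08, and Rpl7l1 -0.10 ± 0.07. The 1 row called below 0 was Rpl12 (-0.47 ± 0.11), whose family had 0.29 ± 0.07 (-0.06 with library totals).

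**Figure D3:**
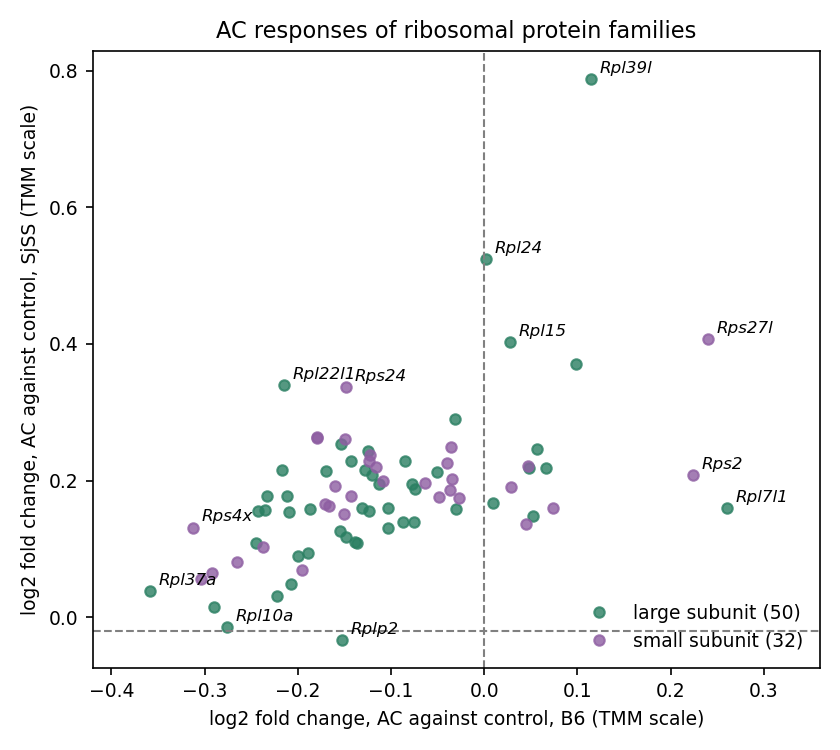
Log2 fold change with ACs in B6 (x axis) and SjSS (y axis) for the 82 families tested, on the TMM scale, coloured by subunit; dashed lines mark the median of all features. Most points lie left of and above the dashed lines; with library totals the SjSS changes of all families but Rpl24 and Rpl39l are negative, as is the median of all features.

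Transcripts of other cell types were scarce. Of 20 T-lineage genes, which mark the thymocytes used as ACs, the summed level was 11.35 to 12.7 CPM in untreated B6 BMDMs and 6.692 to 7.89 CPM with ACs. In SjSS BMDMs it was 12.63 to 15.43 CPM untreated and 16.78 to 21.63 CPM with ACs. The genes did not all follow the sum. Of 7 tested, 2 rose and 2 fell with ACs in B6 (20.0% and 18.3% of all rows), with a median of 0.71. In SjSS 3 rose and 1 fell (28.6% and 29.4% of all rows), with a median of 0.76. Rag1 was at 0 in both untreated groups, and Trac and Dntt in untreated B6. With ACs 0 of the 20 were at 0 in B6, and Themis was in SjSS. All 8 macrophage markers were present, at a summed 15110 to 23750 CPM over the 18 libraries. B cell markers summed to at most 0.82 CPM, and 4 fibroblast markers to 19.57 to 65.15 CPM in B6 and 71.85 to 112.2 CPM in SjSS BMDMs. The part of these cells in the RP changes was not tested, and in bulk samples a changed share of cells and a changed amount of RNA per cell cannot be told apart.

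CpG is a ligand of Tlr9. In B6 BMDMs 18 rows fell and 7 rose, below the 29.8% and 28.1% of all rows, and in families 24 of 82 fell and 4 rose (30.6% and 28.4%). In SjSS BMDMs 18 rows rose and 13 fell (27.8% and 26.4% of all rows), and 10 families rose and 13 fell (28.1% and 26.8%). The median family was at -0.10 in B6 and 0.00 in SjSS. With library totals 67 rows fell and 4 rose in B6, and 39 fell and 6 rose in SjSS. In families 73 fell and 1 rose in B6, and 41 fell and 3 rose in SjSS, alongside a median gene at -0.22 and -0.14. Without B6_CpG 2, 28 rows fell in B6.

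Rpl7l1, Rpl24 and Rpl36al rose with CpG in both strains on the TMM scale, and with library totals Rpl24 (0.01) and Rpl36al (0.05) were not called in B6. Rpl24 had 256.9, 249.7 and 242.9 CPM in B6 with CpG, above all its untreated values (0.19 ± 0.07, adjusted p = 0.0181), and 262.1, 250.2 and 240.1 CPM in SjSS (0.40 ± 0.07, adjusted p = 4.23e-05). Rps4x fell in both strains. Rps14 fell in SjSS by 0.29 ± 0.06, and Rps21 and Rps7 in B6 by 0.27 ± 0.06 and 0.25 ± 0.05. For Rpl13a the change was -0.25 ± 0.06 in B6 (adjusted p = 0.00111) and -0.10 ± 0.06 in SjSS (adjusted p = 0.168), and the interaction of 0.15 ± 0.08 was not called.

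As rows, Rpl27 rose with CpG in B6 and SjSS (0.70 ± 0.10 and 0.69 ± 0.10), from 6.263 to 7.66 CPM over the untreated libraries to 10.71 to 11.61 CPM over the CpG libraries. This row held 3.56% of its family's counts, with 95.9% on Rpl27-ps3. Its share was 2.81% in both untreated groups, and 4.5% in B6 and 4.32% in SjSS with CpG. The Rpl27 family had means of 245.5 CPM untreated and 248.1 CPM with CpG in B6, and 250.5 and 262.0 CPM in SjSS. The Rpl5 row rose as well (0.45 ± 0.12 and 0.64 ± 0.12), while its family was at -0.08 ± 0.05 in both strains. In SjSS the rows Rpl36-ps3 (-0.86 ± 0.12) and Rps10 (-0.37 ± 0.06) fell. Rps10 had 63.43 to 64.08 CPM in untreated B6, 82.89 to 88.78 CPM in untreated SjSS and 65.82 to 69.17 CPM in SjSS with CpG, so the CpG libraries of SjSS stood near B6. The Rps10 family changed by -0.09 ± 0.05 (adjusted p = 0.141).

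In untreated BMDMs a minority of RPs differed between strains. SjSS was higher in 11 rows and lower in 14 (9.04% and 10.6% of all rows), and in 5 and 10 of 82 families (8.99% and 10.8%). The Rps14 family was higher in SjSS by 0.27 ± 0.06. With library totals 16 rows were higher and 8 lower, and 12 families were higher and 7 lower. Leaving out 1 library gave 6 to 9 higher rows and 5 to 11 lower rows, the fewest higher without B6_Con 2 or SjSS_Con 3 and the fewest lower without SjSS_Con 2. Rpl36-ps3, a copy of Rpl36, was the row furthest above, at 4.612, 4.36 and 5.151 CPM in B6 and 8.436, 10.77 and 9.336 CPM in SjSS (1.01 ± 0.12, adjusted p = 1.38e-05). With CpG, SjSS had 5.398, 4.596 and 5.664 CPM of Rpl36-ps3 and overlapped B6.

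SjSS mice carry NOD intervals on chromosomes 1 and 3, where 7 of the RP rows lie. These were Rpl7 (1: 16101295 to 16104663), Rpl31 (1: 39367842 to 39371912), Rpl37a (1: 72711290 to 72713814), Rpl22l1 (3: 28805436 to 28807425), Rps3a1 (3: 86137940 to 86142703), Rps27 (3: 90212522 to 90213652) and Rpl34 (3: 130726831 to 130730399), in the table's mm10 coordinates. Whether each lies inside an interval was not tested. Rpl37a and Rpl22l1 were called lower in untreated SjSS as rows and as families, and the other 5 were not called. The Rpl37a family had 295.2, 287.7 and 295.2 CPM in B6 and 191.7, 190.2 and 219.7 CPM in SjSS (-0.55 ± 0.08, adjusted p = 8.97e-05). Sequence differences between the strains can also change which copy a read is assigned to, and this was not tested.

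RPs with short coding sequences were low in untreated SjSS BMDMs. Over 77 canonical families, the strain difference and the coding length had a Spearman rho of 0.65, against 0.08 over 5642 other genes of the same range of lengths. This is a description across families that share libraries, and has no p. The 9 families below 300 coding bases (Rps29, Rpl41, Rps28, Rps27, Rpl39, Rpl37, Rpl37a, Rps21 and Rpl38) had a median of -0.22, and the other 68 one of 0.01. Short genes outside the RPs lay on the same side by less. The 254 other genes below 300 bases had a median of -0.09, and the 5388 longer ones one of -0.02. This grouping was chosen after the values were seen.

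The summed CPM of the 9 short families was 7.4 to 7.6% of that of the 68 longer ones in untreated B6 and 5.95 to 6.3% in untreated SjSS, with no overlap. With CpG it was 6.68 to 7.49% in B6 and 6.74 to 6.93% in SjSS. With ACs it was 6.77 to 6.95% in B6 and 5.57 to 6.36% in SjSS. The interaction of strain with CpG ran against coding length (rho of -0.78, and -0.04 over the other genes), as did the CpG response in SjSS (rho of -0.61), and these comparisons share untreated libraries with the strain difference. The Spearman coefficient was 0.40 for ACs in B6 and 0.39 for CpG in B6, which share the untreated B6 libraries with it. For ACs in SjSS it was 0.19, for the AC interaction -0.28, and between strains 0.44 with ACs and -0.22 with CpG. Short and longer families had medians of 0.32 and 0.06 in the CpG interaction, and short and longer other genes 0.08 and 0.03. For CpG in SjSS the medians were 0.11 and -0.02 in families, and 0.09 and -0.005 in the other genes. Leaving out any library kept rho between 0.61 and 0.69 for the strain difference and between -0.83 and -0.69 for the interaction.

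Rps28, one of these short RPs, had 220.7, 246.9 and 233.6 CPM in untreated B6 and 179.8, 167.0 and 182.6 CPM in untreated SjSS (-0.41 ± 0.09, adjusted p = 0.00486). Rps29 had 116.5, 121.0 and 125.1 CPM and 93.07, 85.9 and 101.9 CPM (-0.37 ± 0.10, adjusted p = 0.0195). Among the B6 libraries with CpG, replicate 2 stood apart, with 250.2 CPM of Rps28 against 188.8 and 188.4 CPM. Mitochondrial transcripts moved alongside: they took 1.315 to 1.573% of counts in untreated B6 and 0.814 to 1.035% in untreated SjSS, and 12 of 15 mitochondrially encoded genes were lower in SjSS (10.6% of all rows), with a median of -0.59. Their part in the length pattern was not tested.

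**Figure D4:**
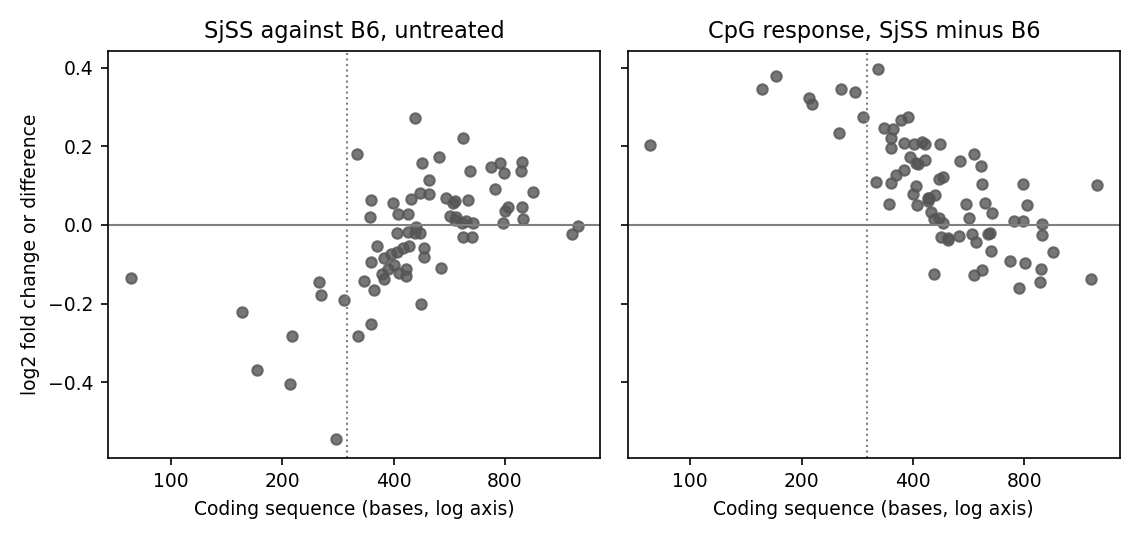
Log2 difference between untreated SjSS and B6 (left) and difference of the CpG responses (right) against coding length (bases, log axis) for the 77 canonical RP families; the dotted line marks 300 bases and each point is a family. Short families lie low on the left and high on the right, and the panels share the untreated libraries. A change of scale moves all families alike and cannot change rho.

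With CpG the strains were close. SjSS was higher in 6 rows and lower in 2 (10.2% and 9.57% of all rows) and in 5 and 2 families (10.5% and 9.63%). Rpl36 was higher by 0.29 ± 0.08 and Rps7 by 0.19 ± 0.05 as families, and Rpl7l1 and Rpl3 were lower. With library totals 37 rows were higher and 2 lower, and 40 families were higher and 1 lower, alongside a median gene at 0.10. The interaction of strain with CpG was called above 0 in 3 rows and below 0 in 3 (3.23% and 2.62% of all rows). It was called above 0 in 4 families and below 0 in none (3.32% and 2.55%), the 4 including Rpl36a (0.40 ± 0.11), Rpl39 (0.34 ± 0.09) and Rpl22 (0.28 ± 0.07). With library totals 8 rows and 8 families were called above 0. The rows called above 0 on the TMM scale numbered 8 without B6_CpG 2 and 1 without B6_CpG 3, SjSS_Con 2 or SjSS_CpG 1, and the rows higher in SjSS with CpG 2 without SjSS_CpG 1 or SjSS_CpG 2 and 3 without B6_CpG 2.

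The paralogs did not share 1 pattern. Rpl7l1, a nucleolar relative of Rpl7 that acts in rRNA processing, was lower in SjSS under every treatment. It had 83.95, 82.98 and 79.89 CPM in untreated B6 and 49.16, 51.02 and 48.4 CPM in untreated SjSS (-0.73 ± 0.05, adjusted p = 7.36e-09). With ACs it had 99.73, 98.7 and 98.13 CPM in B6 and 52.61, 55.92 and 58.4 CPM in SjSS (-0.83 ± 0.05). With CpG it had 120.2, 114.3 and 109.7 CPM and 70.86, 71.5 and 72.26 CPM (-0.68 ± 0.05). No SjSS library reached a B6 library, and in both strains Rpl7l1 rose with either treatment on the TMM scale (0.27 ± 0.05 and 0.48 ± 0.05 in B6, 0.17 ± 0.05 and 0.53 ± 0.05 in SjSS), while with library totals the AC change in SjSS was -0.24. The row held 99.48% of its family's counts in untreated B6 and 93.29% in untreated SjSS.

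Rps27l, a p53 target, rose with ACs in both strains on the TMM scale. It had 54.97, 56.82 and 51.93 CPM in untreated B6 and 59.22, 67.72 and 66.73 CPM with ACs (0.24 ± 0.06, adjusted p = 0.00331). In SjSS it had 51.93, 50.34 and 48.77 CPM untreated and 64.47, 70.47 and 65.26 CPM with ACs (0.41 ± 0.06, adjusted p = 1.02e-05), and with library totals this change was -0.01. The difference of the responses, 0.16 ± 0.09, was not called.

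Rpl22l1, which can replace Rpl22, was low. It had 10.84, 9.721 and 8.206 CPM in untreated B6 and 5.673, 4.939 and 5.167 CPM in untreated SjSS (-0.86 ± 0.14, adjusted p = 0.000201), with no overlap. Rpl36al, a paralog of Rpl36a, rose with CpG by 0.23 ± 0.05 in B6 and 0.27 ± 0.05 in SjSS on the TMM scale. Rpl39l, mostly known from testis, had 0.292 to 2.499 CPM over the libraries. Rps19bp1 had 12.79, 13.91 and 16.75 CPM in untreated B6 and 18.03, 19.09 and 16.56 CPM with ACs, a rise of 0.31 ± 0.09 (adjusted p = 0.0146) in which the highest untreated library was above the lowest AC library.

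**Figure D5:**
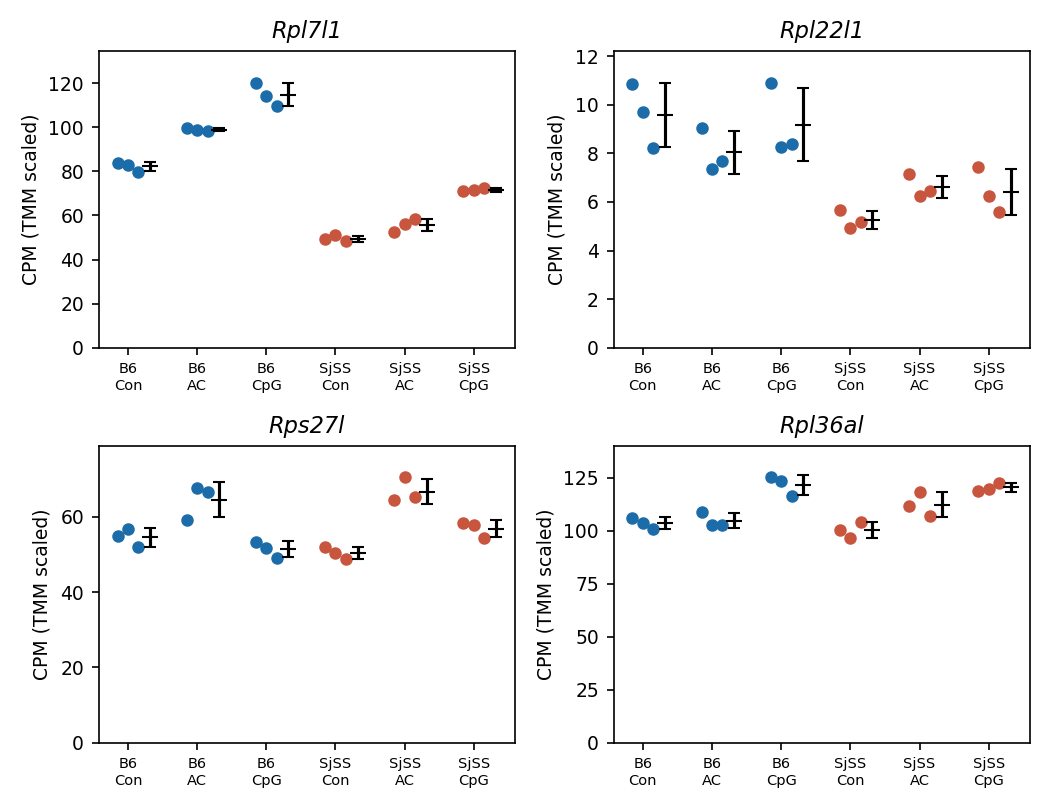
Level (TMM scaled CPM) of Rpl7l1, Rpl22l1, Rps27l and Rpl36al in the 18 libraries by group; points are libraries, bars the mean ± SD of 3. Rpl7l1 is lower in every SjSS group than in any B6 library; Rps27l is higher with ACs in both strains on this scale, and with library totals its SjSS change was -0.01.

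Genes for making ribosomes and controlling translation were counted beside the RPs. The lists were chosen with earlier results of these data known, and their counts are descriptions. Of 54 ribosome biogenesis genes tested, 44 rose and none fell with ACs in B6 (20.0% and 18.3% of all rows), with a median of 0.39. With ACs in SjSS 24 rose and 10 fell on the TMM scale (28.6% and 29.4% of all rows, list median of 0.13), and 7 rose and 33 fell with library totals (median of -0.28). In B6 40 rose and 2 fell with library totals, and with CpG 49 rose in B6 and 48 in SjSS on the TMM scale (28.1% and 27.8% of all rows). Eif6, which keeps free large subunits apart from small ones, rose by 0.93 ± 0.06 with ACs in B6 and 1.22 ± 0.06 in SjSS. Wdr43 rose by 1.48 ± 0.07 with ACs in SjSS. With ACs, 33 biogenesis genes were lower in SjSS than in B6 and 5 higher (25.5% and 24.0% of all rows), and 49 were lower and 3 higher with library totals. Myc, a driver of both gene classes, was lower in SjSS without treatment (-0.95 ± 0.11) and with ACs (-1.36 ± 0.12).

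Of 77 mitochondrial RPs, 41 rose and 1 fell with ACs in B6 and 33 rose and 9 fell in SjSS on the TMM scale, and with library totals 34 rose and 2 fell in B6 and 4 rose and 51 fell in SjSS. The shares of all rows are those given for biogenesis genes. With ACs 29 were lower in SjSS than in B6 and 6 higher, and 66 were lower and 1 higher with library totals, with Mrps10 at -1.06 ± 0.07 and Mrpl39 at 0.68 ± 0.08. The other translation genes with TOP mRNAs gave counts of their own. Of 23, 12 rose and 2 fell with ACs in SjSS and 4 rose and 5 fell in B6, and 12 were higher and 1 lower in SjSS than in B6 with ACs on the TMM scale, while 1 was higher and 9 were lower with library totals. With library totals none rose and 18 fell with ACs in SjSS, and the list stood at -0.29 beside -0.43 for all rows. Btf3 rose by 0.54 ± 0.06 with ACs in SjSS, while Eif4b fell by 0.50 ± 0.05 in B6 and 0.73 ± 0.05 in SjSS. Of 8 snoRNA host genes, which also carry TOP tracts, none rose and 3 fell with ACs in SjSS, near the 29.4% of all rows, and 7 fell with library totals. Gas5 fell by 0.54 ± 0.08.

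Some regulators of translation changed by more than 1.3 in log2 size; no RP row that was called did. Of 25, 9 rose and 12 fell with ACs in SjSS, near the 28.6% and 29.4% of all rows, and 4 rose and 18 fell with library totals. Larp1, which binds TOP tracts, rose by 1.57 ± 0.06 and the kinase gene Eif2ak2 by 2.12 ± 0.11. Sesn1, an inhibitor of mTORC1 signalling, fell by 3.15 ± 0.11 and Pdcd4, an inhibitor of Eif4a, by 2.72 ± 0.14. Of 6 genes of the p53 pathway, 4 rose and 1 fell with ACs in SjSS on the TMM scale, with Cdkn1a at 2.16 ± 0.12, Mdm2 at 0.81 ± 0.09 and Zmat3 at -1.09 ± 0.07. With library totals 3 rose and 2 fell in SjSS. In B6 3 rose and 1 fell with ACs on either scale (20.0% and 18.3% of all rows with TMM). A part of free RPs in these changes was not tested.

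The starts of RP transcripts were read for the TOP letters. The sequences are from RefSeq (GRCm38.p6), and 65 of the 98 genes had a listed start. A run was a C followed by at least 4 bases that are each C or T, on the transcribed strand, starting within the first 20 bases after the start. It was found in 39 of the 65 (60%), against 34.7% of 10390 tested genes with a start and 33.2% of all 27025. Among mitochondrial RPs it was 26 of 68 (38.2%), and among the other TOP translation genes 11 of 16 (68.8%). The windows of 5 members that turn up in the comparisons are printed, 30 bases from the listed start with the run in capitals.
Rpl15 (chr14:18270957-18270986, minus strand): CTTCCTTTCCTCTggcggcagccatcaggt
Rpl13a (chr7:45128716-45128745, minus strand): gaCCTCCTCCTTTCCCaggcggctgccgaa
Rps2 (chr17:24720063-24720092, plus strand): cgcgCTTCTTggagcactataaattgtccc
Rpl24 (chr16:55966275-55966304, plus strand): ggaaacagactgggcgctcggaagtgacat
Rpl7l1 (chr17:46782627-46782656, minus strand): cgcagtagctgaagcaccggaaagatggcg
Rpl15 opened with a run of 13 bases. The runs of Rpl13a (14 bases) and Rps2 (6 bases) began 2 and 4 bases after the listed start. Rpl24, the family with the largest called rise with ACs in SjSS, and Rpl7l1 had no such letters in this window. A match is a description of the listed start, which may lie a few bases from the cap.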

How the data were processed

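RNA-seq of 18 BMDM libraries was analysed from 1 table of 20615 genes. Reads were aligned by the authors to mm10 with STAR, Partek's E/M step then gave gene values, and the deposited values are estimated counts, not normalized; the submitters' processing notes also list DESeq2 3.13. The E/M step divides reads that match several genes among them, RPs and their copies included. Estimated counts were rounded and tested with edgeR 4.0.16 (R 4.3.3): filterByExpr, TMM factors, 1 mean per group over all 18 samples and the quasi-likelihood test, in 9 comparisons, each with Benjamini-Hochberg adjustment over 15789 rows. SEs are the fold change divided by the square root of F. Families were summed over rows whose GENCODE M21 transcript matched (blastn 2.17.0, identity of at least 80% over at least 60% of the row) and tested over 15504 features; this step and the coding-length grouping were chosen after seeing the data. CPM are TMM scaled and given as mean ± SD.

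Named genes were the 3 largest called increases and decreases per comparison without overlap between groups, as rows and as families, the paralogs, Rps19bp1, members on chromosomes 1 and 3, RPs with known roles, and the 2 largest changes each way per related list. Rps24, Rps10 and Rpl15 in other comparisons, and the windows printed, were picked from these. Members, lists and tests were chosen with earlier results of these data known. Alternatives were DESeq2 1.42.0, its size factors, library totals, TMM without the RPs, other filters, the compared groups only, replicate blocks and leaving out each sample. Values of some genes are not reported here. The test was tested on simulated data. Samples were grouped from their labels. The methods give 4 h for the second AC incubation and the labels 3 h. Tables and figures used Python 3.11.15, pandas 2.3.3, numpy 2.4.6, scipy 1.17.1 and matplotlib 3.10.9.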

Additional observations from a re-analysis of the deposited data

Results flagged for a closer look

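Among the RP rows named for the size of their change, 10 differed between the 2 strains in their response to ACs or to CpG, by edgeR's test of the interaction with Benjamini-Hochberg adjustment. The strain of the thymocytes used as ACs is not given for these samples. With ACs the difference of the responses, SjSS minus B6, was 0.60 ± 0.13 for Rpl24 (adjusted p = 0.00137), 0.58 ± 0.19 for Rpl22l1 (adjusted p = 0.023), 0.49 ± 0.10 for Rpl37a and -0.47 ± 0.11 for Rpl12. As families, Rpl24 and Rpl22l1 kept the direction and Rpl12 had the opposite one, at 0.29 ± 0.07. With CpG it was 0.47 ± 0.10 for Rps29, 0.45 ± 0.12 for Rps28, 0.27 ± 0.07 for Rpl22, -0.88 ± 0.18 for Rpl36-ps3, -0.35 ± 0.08 for Rps10 and -0.43 ± 0.12 for Rps2-ps6. As families Rps28 (0.32 ± 0.13), Rps29 (0.38 ± 0.15) and Rps10 (-0.03 ± 0.07) were not called, and Rpl22 was (0.28 ± 0.07). With library totals the AC differences of Rpl24 (0.26, adjusted p = 0.113), Rpl37a (0.14, adjusted p = 0.25) and Rpl22l1 (0.24, adjusted p = 0.325) were not called. Some calls were also lost when 1 library was left out, for Rpl22l1 with 5 of the libraries, Rpl22 with 4, Rps28 with 7 and Rps2-ps6 with 9. Rps2-ps6 was lost under 13 alternatives in all, and Rpl22 under 5, with adjusted p up to 0.137 and 0.0637.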

How the results depend on the processing

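Depth limited the precision of the lowest rows, such as Rpl39l. The scale and the summing of copies moved the counts of calls. Of 1834 values of 116 named results under the alternatives, 1619 kept direction and side of the threshold, 187 lost the threshold and 28 changed sign, all 28 with library totals. The RP medians relative to all rows moved by at most 0.001 between TMM and library totals. A change of scale moves all rows of a comparison nearly alike, so this is no test of these medians.

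With library totals, higher and lower RP rows numbered 3 and 44 for ACs in B6, 1 and 67 for ACs in SjSS, 4 and 67 for CpG in B6, and 6 and 39 for CpG in SjSS. Between strains 8 were lower without treatment, 14 higher and 24 lower with ACs and 37 higher with CpG, and the interactions had 0 and 10 with AC and 8 higher with CpG. On this scale the median of all rows was -0.07 for ACs in B6, -0.43 for ACs in SjSS, -0.221 for CpG in B6 and -0.142 for CpG in SjSS. Between strains it was 0.033 without treatment, -0.346 with ACs and 0.102 with CpG. For the interactions it was -0.347 with AC and 0.081 with CpG. The share of all rows called on this scale is not given. For ACs in SjSS these rows changed sign: Rpl11 (-0.186), Rpl26 (-0.239), Rpl31 (-0.123), Rpl36al (-0.249), Rpl37a (-0.158), Rpl7 (-0.176), Rpl7l1 (-0.245), Rplp0 (-0.198), Rps19 (-0.194), Rps25 (-0.176), Rps27l (-0.007), Rps27rt (-0.151), Rps3 (-0.227), Rps3a1 (-0.194) and Rps6 (-0.082). So did, between strains with ACs, Rpl13a (-0.059), Rpl26 (-0.051), Rpl37a (-0.085), Rplp0 (-0.081), Rplp1 (-0.048), Rps25 (-0.118), Rps27rt (-0.038) and Rpsa (-0.079), and, for the AC interaction, Rpl11 (-0.025), Rpl13a (-0.114), Rpl31 (-0.044), Rpl34 (-0.077) and Rps3a1 (-0.028).

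Summed into families on the TMM scale, 3 rose with ACs in B6, 0 fell with ACs in SjSS, 4 rose with CpG in B6 and 10 rose with CpG in SjSS. In SjSS 5 families were higher than in B6 without treatment and 1 was lower with ACs. In either interaction 0 families were called below 0 (6 in the AC interaction with library totals). Their medians relative to all features were -0.127 for ACs in B6, -0.054 for CpG in B6, -0.012 between untreated strains and 0.058 for the CpG interaction. Fits of the compared groups only gave 37 lower rows for ACs in B6, 1 lower for ACs in SjSS, 7 higher between untreated strains and 1 higher between strains with CpG. DESeq2 gave 1 lower row for ACs in SjSS, its size factors 2 higher between strains with CpG, and no filter on low counts 7 higher between untreated strains. Shares of protein coding counts were 1.625% and 1.706% untreated, 1.473% and 1.455% with ACs and 1.363% and 1.525% with CpG, in B6 and SjSS. TOP runs within 5 bases of the start were found in 36.9% of RPs with a listed start, against 14.8% of tested genes and 13.4% of all genes. Among mitochondrial RPs it was 16.2%, and among the other TOP translation genes 31.2%.

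Deviations from the group mean correlated at 0.020 to 0.264 between same-numbered libraries of a strain. Between differently numbered ones they correlated at -0.252 to 0.074, mostly below the same-numbered values. The correlations therefore do not exclude that the numbers pair samples. As the sources used here do not state pairing, the main fits had no block, and blocks were run as alternatives. With a replicate block 5 rows, and with a block within strain 6, were called above 0 in the CpG interaction.

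Leaving out each library in turn gave ranges. For ACs in B6, higher rows ran from 4 (without B6_Con 2) to 8 and lower rows from 10 to 24, with 15, 14 and 10 lower without B6_Con 1, B6_AC 2 and B6_AC 3. For ACs in SjSS 1 to 2 rows were lower, and the median relative to all rows ran from 0.191 to 0.251. For CpG in B6 lower rows ran from 12 (without B6_Con 1) to 28 (without B6_CpG 2) and the relative median from -0.044 to 0.015, and for CpG in SjSS it ran from 0.018 to 0.037. Between untreated strains 6 to 9 rows were higher, with 6 without B6_Con 2 or SjSS_Con 3, and 5 to 11 lower, with 7, 8, 9 and 5 without B6_Con 1, B6_Con 2, SjSS_Con 1 and SjSS_Con 2. Between strains with CpG 2 to 5 rows were higher, with 3, 2 and 2 without B6_CpG 2, SjSS_CpG 1 and SjSS_CpG 2, and 1 to 3 lower, with 1 without B6_CpG 1 or SjSS_CpG 3. The relative medians ran from 0.041 to 0.084 there, from 0.276 to 0.339 for the AC interaction and from 0.012 to 0.057 for the CpG interaction. In the CpG interaction 1 to 8 rows were called above 0, with 8 without B6_CpG 2 and 1 without B6_CpG 3, SjSS_Con 2 or SjSS_CpG 1. Rows past 1.3 in log2 size numbered 0 to 1 for CpG in B6 and for the strains with CpG (1 without B6_CpG 3), and for the strains with ACs (1 without SjSS_AC 1). Among rows named for size, calls most often lost were Rps2-ps6 and Rps28 in the CpG interaction, without 9 and 7 of the libraries. The causes of these moves were not tested.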
